A study of Mus musculus with 18 samples.

Results

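The data describe how the loss of Bhlhe40 and Bhlhe41 acted differently on the transcriptome of peritoneal and of alveolar macrophages of the mouse. For each gene the quantity is the genotype by tissue interaction: the change from wild type (WT) to the double knockout (DKO) in peritoneal macrophages minus the same change in steady-state alveolar macrophages, on log2(TPM + 1), where TPM is a gene's transcripts per 1e6 transcripts. The 8 libraries of these 4 groups were taken from 18 samples in the study, of which 12 are RNA-seq libraries. All 12303 features with at least 1 TPM in at least 2 libraries were tested, of 24732 in the tables. WT cells were Bhlhe40+/+Bhlhe41+/+ and DKO cells Bhlhe40-/-Bhlhe41-/-, both on a C57BL/6 background, with 2 biological replicates per group. Alveolar macrophages were sorted from digested lungs as CD11c+ SiglecF+ cells with low CD11b, and peritoneal macrophages from cavity washes as Tim4+ cells positive for CD11b and F4/80 whose MHC class II was intermediate. A further 4 libraries, WT and DKO alveolar macrophages from mixed bone marrow chimeras, entered the fit and served as a different alveolar reference. In these mice the DKO donor was CD45.1- CD45.2+ and the WT donor CD45.1+ CD45.2-. The labels state no age, sex or collection time.

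Bhlhe40 and Bhlhe41 are paired basic helix-loop-helix proteins that bind E-box DNA and repress transcription, and they belong to the feedback loops of the circadian clock. Alveolar macrophages live on the air side of the lung, take up surfactant and depend on the nuclear receptor Pparg. Large peritoneal macrophages float in the abdominal cavity, depend on the transcription factor Gata6 and are rich in complement and apolipoprotein transcripts. A positive interaction below means that the DKO effect was more positive in the peritoneum than in the alveolus, and a negative one the reverse. It says nothing by itself of which tissue moved, so both changes are given for the leading genes.

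The libraries carried 17.62 to 19.82 M (1e6) reads in the alveolar groups and 23.57 to 29.34 M in the peritoneal groups. Of the chimera libraries, DKO replicate 1 carried 6.59 M reads and the others 16.51 to 20.36 M. Both tissues matched their labels. Pparg, Siglec5 (an older symbol for SiglecF), Itgax, Chil3, Car4 and Fabp1 summed to 17420 to 18640 TPM in WT alveolar and 6.14 to 9.65 TPM in WT peritoneal libraries. The peritoneal set of Gata6, Timd4, Icam2, Emr1, Itgam, Selp and Alox15 summed to 17010 to 17380 TPM in WT peritoneal and 293 to 332 TPM in WT alveolar libraries. Among markers of other cells, 9 neutrophil genes summed to 21.6 to 25.3 TPM in WT and 81.5 to 106 in DKO alveolar libraries. S100a8 made up 17.4 to 19.9 and 79.8 to 103 TPM of that, while Mpo and Camp were at 0 and S100a9 at most at 0.68 TPM. The part of other cells in the results was not tested. The 12 lung epithelium genes summed to 165 to 210.3 and 192 to 207 TPM there, and to at most 1.81 TPM in the peritoneum. In bulk RNA, fewer cells of a type and less RNA per cell cannot be told apart. Alveolar and peritoneal libraries come from separate series of library numbers, so that tissue and library series cannot be told apart for any difference described here. The same holds for tissue and cell isolation, from digested lungs or from cavity washes.

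Of the 2 targeted genes, Bhlhe41 differed between the tissues and Bhlhe40 did not pass. Bhlhe40 stood at 527 and 559 TPM in WT and 122 and 98.7 in DKO alveolar libraries, and at 213 and 247 TPM in WT and 85.5 and 65.7 in DKO peritoneal libraries. DKO libraries were below WT in both tissues without overlap, with changes of -2.29 ± 0.19 in the alveolus and -1.60 ± 0.19 in the peritoneum, an interaction of 0.69 ± 0.27 (adjusted p = 0.0788), which did not pass. Bhlhe41 was measured at 86.6 and 77.6 TPM in WT and 156 and 155 in DKO alveolar libraries, and at 3.68 and 1.9 TPM in WT and 75.4 and 83.2 in DKO peritoneal libraries. Every DKO library lay above WT, and in the peritoneum it went from a few TPM to about the WT alveolar level, with changes of 0.92 ± 0.18 in the alveolus and 4.44 ± 0.18 in the peritoneum, an interaction of 3.53 ± 0.25 (adjusted p = 1.01e-05). The deleted part of each gene is not given in the sources used here, and a gene-level TPM counts transcript outside it too, so neither value checks a genotype.

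The interaction passed an adjusted p of 0.05 for 3480 features, or 28.3% of those tested. It was positive for 2129 (17.3%) and negative for 1351 (11.0%). TPM is a share of each library, and rescaling by the median of ratios moved the median interaction of all features from 0.12 to 0.02. The split was then 1668 positive (13.6%) and 1702 negative (13.8%), with 2972 of the calls shared in direction. An interaction of at least 1 in size, or a full log2 unit, was found for 634 positive and 615 negative features. Leaving out 1 library gave between 2120 and 4405 calls, the lowest without peritoneal WT replicate 2 and the second lowest, 2140, without alveolar WT replicate 2. In all, 1809 features passed with every library in and with any 1 of the 8 left out.

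Most called interactions belonged to features called in the alveolus. The DKO was higher than WT for 1495 features (12.2%) and lower for 4842 (39.4%) in alveolar macrophages, against 837 (6.8%) and 1976 (16.1%) in peritoneal macrophages. Without peritoneal WT replicate 2 the peritoneal counts were 448 and 761, and the classes below rest on all libraries. After rescaling these were 2513 (20.4%) and 2206 (17.9%) in the alveolus and 1464 (11.9%) and 968 (7.87%) in the peritoneum. Of the 3480 called interactions, 2241 belonged to features called in the alveolus alone, 1551 of them lower and 690 higher in the DKO. Another 585 were called in the peritoneum alone, 240 higher and 345 lower. Opposite calls in both tissues accounted for 317, same-direction calls of unequal size for 254, and 83 were called in neither tissue. For the 317 opposite features, the authors' deposited table gives an adjusted p under 0.05 in both tissues with opposite signs for 214. Of the 2241 called here in the alveolus alone, it gives a peritoneal adjusted p under 0.05 for 536. Of the 585 called here in the peritoneum alone, it gives an alveolar one for 156, so these classes depend on the test used. Within 50 tested features of Bhlhe40 or Bhlhe41 along the chromosome, 61 of 172 had a called interaction (35.5%, against 28.3% of all), and names below that fall in this range are marked.

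**Figure D1:**
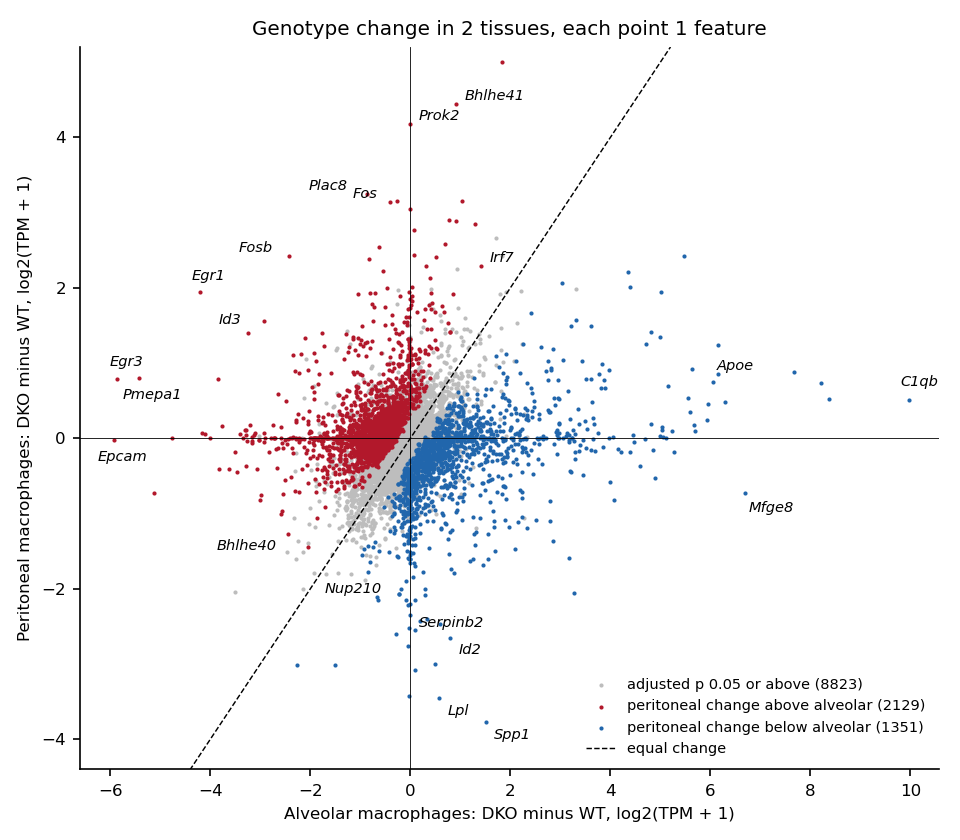
Change from WT to DKO in alveolar (x axis) and peritoneal (y axis) macrophages on log2(TPM + 1), 1 point per tested feature, with red and blue marking the 2129 positive and 1351 negative interactions with adjusted p under 0.05. Blue points run far to the right at small peritoneal changes (C1qb, Apoe, Mfge8), red points lie to the left (Egr3, Epcam, Pmepa1) or at the top (Prok2, Bhlhe41), and grey points follow the dashed line of equal change.

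The positive interactions were led by immediate-early genes and by genes that WT alveolar macrophages express and DKO ones had almost lost. Egr3, an immediate-early zinc-finger factor, was at 70.3 and 106 TPM in WT and 0.932 and 0.169 in DKO alveolar libraries, and at 0.556 and 0.698 TPM in WT and 1.31 and 2.43 in DKO peritoneal libraries. Its changes were -5.86 ± 0.36 in the alveolus and 0.79 ± 0.36 in the peritoneum, an interaction of 6.65 ± 0.51 (adjusted p = 1.78e-05). DKO alveolar libraries fell to the peritoneal range, while the peritoneal groups lay close together. Pmepa1, a membrane protein induced by TGF-beta that restrains its signalling, had 58.3 and 55.5 TPM in WT and 0.32 and 0.369 in DKO alveolar libraries, but 6.93 and 5.45 TPM in WT and 11.6 and 11.3 in DKO peritoneal libraries. It fell in the alveolus and rose in the peritoneum, with changes of -5.43 ± 0.10 in the alveolus and 0.80 ± 0.10 in the peritoneum, an interaction of 6.23 ± 0.15 (adjusted p = 2.37e-08). Epcam, an epithelial adhesion molecule, was at 113 and 122 TPM in WT and 1.15 and 0.753 in DKO alveolar libraries and at most 0.0382 TPM in any peritoneal library, so its interaction of 5.90 ± 0.30 came from the alveolar fall. The same pattern was seen for the defensin-like Spag11b, the nucleoside kinase gene Uck2, the angiogenesis inhibitor Vash1, the EGF-receptor ligand Areg and the small nuclear RNA Scarna9, whose peritoneal levels were below 1 TPM in every library. Scarna9 rested on few reads, 13 and 8 in WT and 1 and 0 in DKO alveolar libraries. Uck2, Areg and Scarna9 did not pass with the chimera reference. Uck2 also fell in the peritoneum, from 0.826 and 0.74 to 0.0695 and 0.0715 TPM. The interactions of Spag11b, Uck2, Vash1, Areg and Scarna9 ran from 4.0 to 4.76. For such genes the size depends on the pseudocount of 1 added to each value.

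Among these 15 genes Prok2 and Plac8 owed their place to the peritoneum. Prok2 encodes prokineticin 2, a secreted ligand, and no read of it was recovered in any alveolar library. It was at 2.6 and 2.22 TPM in WT and 64.1 and 57.1 in DKO peritoneal libraries, and the peritoneal change was 4.17 ± 0.13 with an interaction of 4.17 ± 0.18 (adjusted p = 4.93e-07). Prok2 lies 10 tested features from Bhlhe40. Plac8, a small cysteine-rich protein of myeloid cells, was at 0.525 and 1.2 TPM in WT and 0 and 0 in DKO alveolar libraries, and at 1.24 and 0.426 TPM in WT and 18.1 and 14 in DKO peritoneal libraries. The peritoneal DKO libraries were the only ones well above the others, and the interaction was 4.12 ± 0.34.

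The negative interactions were led by genes of the peritoneal repertoire that DKO alveolar macrophages switched on. All 3 chains of complement C1q were near 0 in WT alveolar macrophages and among the strongest transcripts of the peritoneum. C1qb was at 0 and 0.131 TPM in WT and 891 and 1263 in DKO alveolar libraries, and at 8336 and 8120 TPM in WT and 11844 and 11470 in DKO peritoneal libraries. Its alveolar change was 9.96 ± 0.18 and its peritoneal change 0.50 ± 0.18, an interaction of -9.46 ± 0.26 (adjusted p = 3.2e-08). C1qc and C1qa gave -7.86 ± 0.36 and -7.49 ± 0.28. Of the C1q genes only C1qa was also called higher in the peritoneum, by 0.73 ± 0.20. DKO alveolar levels of C1qb stayed below every peritoneal library. Apoe, the lipid carrier of macrophages, was at 94.2 and 94.7 TPM in WT and 6454 and 6150 in DKO alveolar libraries, and at 30870 and 24262 TPM in WT and 47303 and 44537 in DKO peritoneal libraries. It rose in both tissues, by 6.04 ± 0.15 and 0.75 ± 0.15, and the interaction was -5.30 ± 0.21 (adjusted p = 2.57e-07).

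Other leading genes passed the peritoneal level or had no peritoneal counterpart. Mfge8, a bridge between dying cells and phagocytes, was at 19.5 and 15.7 TPM in WT and 1176 and 3064 in DKO alveolar libraries, and at 152 and 157 TPM in WT and 97.5 and 87.9 in DKO peritoneal libraries. DKO alveolar libraries were above all peritoneal libraries, though uneven, and the interaction was -7.41 ± 0.48, or -8.10 to -6.72 with 1 library left out. Igf2r, the mannose 6-phosphate receptor that carries enzymes to lysosomes, had 0.437 and 0.406 TPM in WT and 102 and 120.4 in DKO alveolar libraries, against 16.9 and 19.9 TPM in WT and 28.4 and 24 in DKO peritoneal libraries. Every DKO library exceeded WT of its tissue, with changes of 6.30 ± 0.12 in the alveolus and 0.49 ± 0.12 in the peritoneum, an interaction of -5.81 ± 0.17 (adjusted p = 5.19e-08). Pianp, a ligand of an inhibitory myeloid receptor, and the serine protease Htra4 were nearly absent from the peritoneum, at up to 1.39 and 1.02 TPM. DKO alveolar libraries held 280.4 and 396 TPM of Pianp and 225 and 291 TPM of Htra4, and the interactions were -6.79 ± 0.25 and -5.29 ± 0.22. The chemerin receptor Cmklr1 (-5.59 ± 0.49), the C3a receptor C3ar1 (-5.50 ± 0.17), the metalloprotease Adam8 (-5.41 ± 0.31) and the membrane protein Pmp22 (-5.50 ± 0.22) resembled C1qb and C1qc. They rose from under 3 TPM in the alveolus, with no called change at 175 TPM or more in the peritoneum. Gas7, an adaptor of the actin cytoskeleton, and Syngr1, a vesicle membrane protein, gave -5.69 ± 0.29 and -5.45 ± 0.29.

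**Figure D2:**
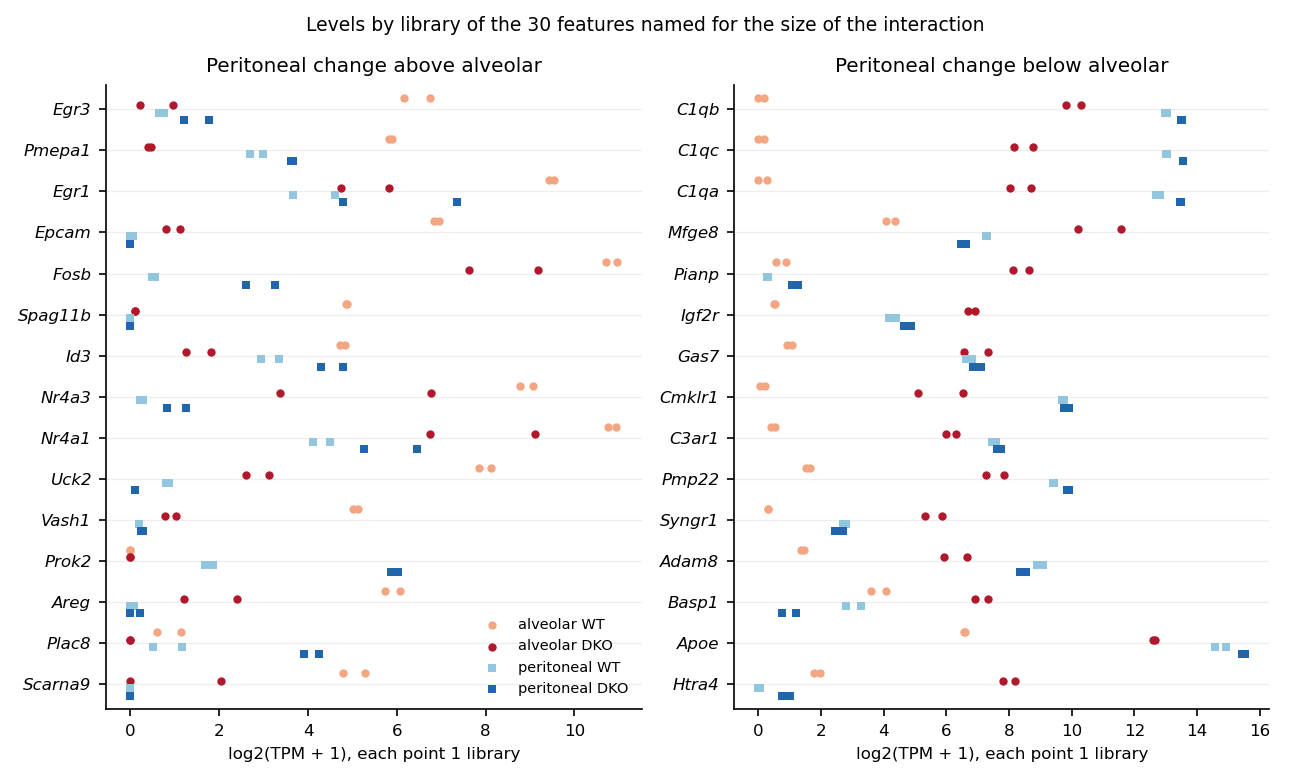
Level of the 15 features with the highest (left) and the 15 with the lowest (right) named interaction, as log2(TPM + 1) on the x axis with 1 point per library, circles for alveolar and squares for peritoneal macrophages and dark colours for DKO. On the left most of the distance lies between WT and DKO alveolar libraries, Prok2 and Plac8 excepted; on the right DKO alveolar libraries lie well above WT alveolar ones, and peritoneal groups differ less.

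Gene lists chosen for macrophage biology, with earlier results of these data known, are described by counts beside the background of 17.3% positive and 11.0% negative. Of 24 lists, the immediate-early and heat shock list had the highest median and the cavity macrophage identity list the lowest. Their medians were 1.42 and -0.74, against 0.12 over all features. After rescaling they were 1.30 and -0.75, against 0.02. Each count is followed by the count after rescaling and by that with the chimera reference, in which the chimera alveolar change replaces the steady-state one. Over all features that reference gave 623 positive and 1473 negative interactions. Counts of genes that rose or fell in a tissue stand against 12.2% higher and 39.4% lower of all features in the alveolus and 6.8% and 16.1% in the peritoneum. These shares are no background for the fits below that leave out 1 library. Calls over all features rose without alveolar DKO replicate 1 and fell without either alveolar WT replicate. The list counts given for those fits moved the same way, so they do not single out a list. Without alveolar DKO replicate 1 the count above 0 was 11 for lipid use (7 with all libraries), 11 for clock (7 with all libraries) and 7 for glycolysis (4 with all libraries). Without alveolar WT replicate 1 the count below 0 was 3 for sterol synthesis (5 with all libraries) and 2 for transcription factors (4 with all libraries). Without alveolar WT replicate 2 the count above 0 was 5 for uptake (9 with all libraries) and 3 for other resident macrophages (5 with all libraries). Without alveolar WT replicate 2 the count below 0 was 2 for interferon (4 with all libraries) and 3 for chaperones (6 with all libraries).

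**Figure D3:**
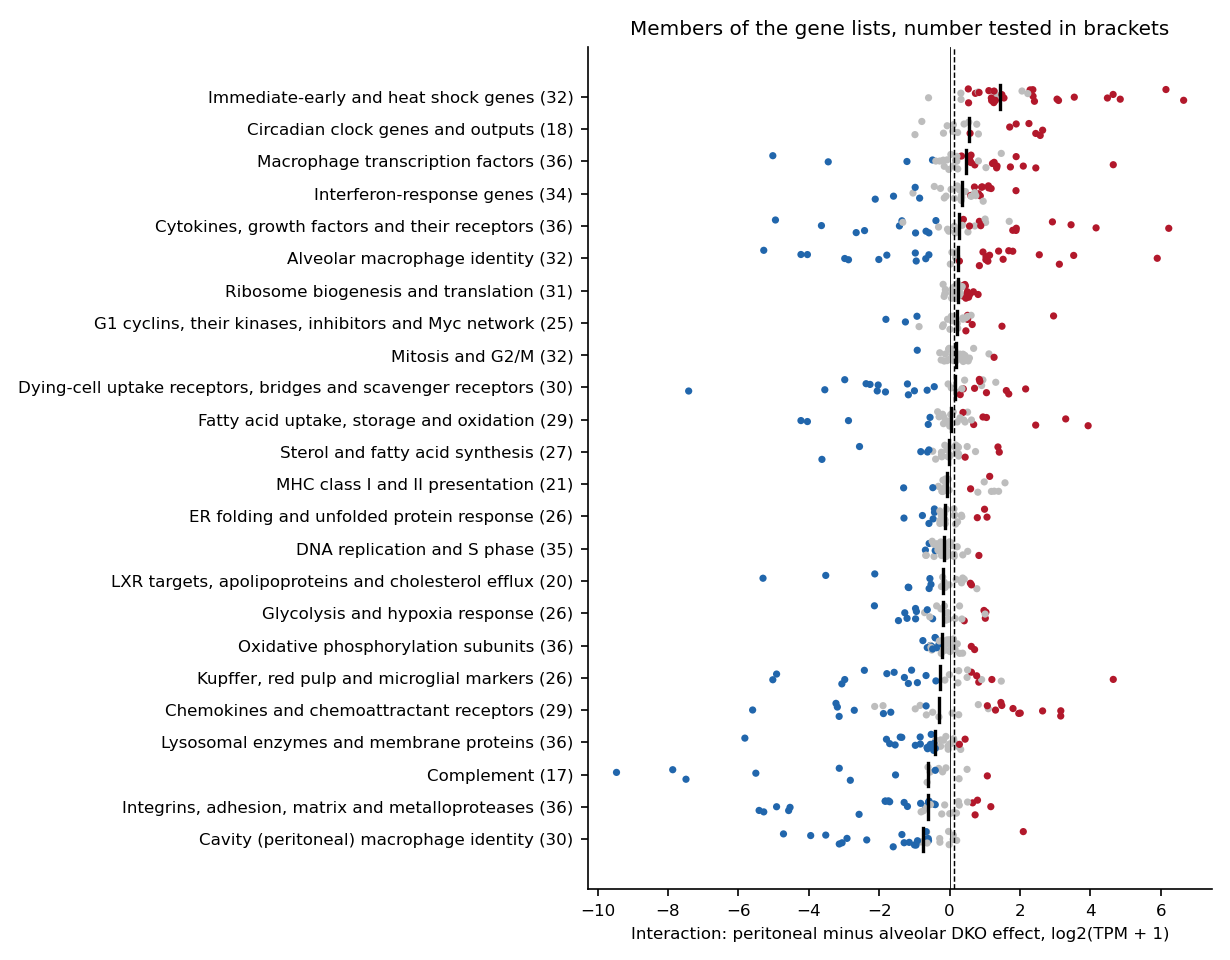
Interaction of every tested member of 24 gene lists on log2(TPM + 1), with red and blue points for positive and negative interactions with adjusted p under 0.05, grey points for the rest and black bars for list medians. The dashed line is the median of all features, 0.12. Most immediate-early and heat shock genes lie to its right, and most complement, adhesion and cavity identity genes to its left.

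Immediate-early genes are switched on within minutes by growth factors and stress, and encode mostly transcription factors. Alveolar cells came from digested lungs and peritoneal cells from cavity washes, so tissue and cell handling cannot be told apart for these genes. The part of handling in their values was not tested. The list of 32 tested also held heat shock genes. Of these 32, 24 interactions passed above 0 and 0 below (23 and 0 after rescaling, 9 and 1 with the chimera reference). In the alveolus 1 rose and 23 fell, whereas in the peritoneum 12 rose and 0 fell. After rescaling 2 rose and 17 fell in the alveolus, and 13 rose and 0 fell in the peritoneum. Fos, a subunit of AP-1, was at 1726 and 1655 TPM in WT and 1518 and 1074 in DKO alveolar libraries, and at 16.1 and 14 TPM in WT and 141 and 139 in DKO peritoneal libraries. The alveolar level was high in all 4 libraries and the peritoneal DKO libraries lay well above their WT, with changes of -0.40 ± 0.15 in the alveolus and 3.14 ± 0.15 in the peritoneum, an interaction of 3.54 ± 0.21 (adjusted p = 3.73e-06). Fosb, its relative, was at 1686 and 1997 TPM in WT and 580.0 and 197 in DKO alveolar libraries, and at 0.396 and 0.471 TPM in WT and 5.11 and 8.57 in DKO peritoneal libraries. Both changes passed in opposite directions, at -2.44 ± 0.39 in the alveolus and 2.42 ± 0.39 in the peritoneum, an interaction of 4.85 ± 0.55 (adjusted p = 0.000212). Dusp1, a phosphatase that ends MAP kinase signalling, was at 917 and 873 TPM in WT and 1010 and 872 in DKO alveolar libraries without separation, and at 123 and 105 TPM in WT and 904 and 426 in DKO peritoneal libraries, an interaction of 2.37 ± 0.37.

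Egr1, Nr4a1 and Nr4a3 rested on uneven libraries. Egr1 was at 690.1 and 744 TPM in WT and 55.3 and 25.8 in DKO alveolar libraries, and at 11.6 and 23.5 TPM in WT and 26.8 and 163 in DKO peritoneal libraries, an interaction of 6.15 ± 1.02 (adjusted p = 0.00197). WT and DKO did not overlap in the alveolus, but DKO replicates differed strongly in both tissues. Nr4a1, an orphan nuclear receptor, was at 1741 and 1965 TPM in WT and 551 and 107 in DKO alveolar libraries, and at 16.2 and 21.5 TPM in WT and 37.4 and 86.9 in DKO peritoneal libraries, an interaction of 4.49 ± 0.86. Nr4a3, its relative, gave 4.65 ± 1.10, but 2.95 without alveolar DKO replicate 2 and 6.35 without alveolar DKO replicate 1. Egr2 followed at 3.06 ± 0.63 and Jun at 1.49 ± 0.34. Of the chaperones, Hspa8 gave 1.26 ± 0.14. Hspa1a did not pass at 2.22 ± 1.11, but gave 3.70 and passed without alveolar DKO replicate 2. Ier3 was an exception to the alveolar fall, with changes of 2.12 ± 0.22 and 1.53 ± 0.22 and an interaction of -0.60 ± 0.31 that did not pass.

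The alveolar reference mattered for this group. In chimera alveolar macrophages 5 of the 32 rose and 4 fell in the DKO, beside 13.7% and 13.6% of all features. With the chimera reference Egr1, Egr2, Jun, Nr4a1, Nr4a3 and Hspa8 no longer passed. The chimera changes of Egr3 and Fosb were -1.01 ± 0.36 and -0.43 ± 0.39, against -5.86 ± 0.36 and -2.44 ± 0.39 at steady state.

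Some clock genes also differed between the tissues in their DKO change. The labels state no collection time, and the part of time of day in these values was not tested. Bhlhe40 and Bhlhe41 act on the same E-boxes as the activators Clock and Arntl, and Per1, Per2, Cry1 and Cry2 are the repressors that close the loop. Of 18 clock genes tested, 7 interactions passed above 0 and 0 below (7 and 1 after rescaling, 5 and 3 with the chimera reference). In the peritoneum 9 rose and 2 fell, and in the alveolus 1 rose and 6 fell. Per2 was at 19.7 and 26.8 TPM in WT and 14.2 and 13 in DKO alveolar libraries, and at 5.44 and 3.27 TPM in WT and 20.5 and 17.6 in DKO peritoneal libraries. DKO was below WT in every alveolar comparison and above WT in every peritoneal one, with changes of -0.71 ± 0.19 in the alveolus and 1.93 ± 0.19 in the peritoneum, an interaction of 2.65 ± 0.27 (adjusted p = 0.000111). Cry1 showed the same reversal, at 21.3 and 20.04 TPM in WT and 7.26 and 9.18 in DKO alveolar libraries and 2.11 and 1.11 TPM in WT and 5.29 and 4.62 in DKO peritoneal libraries. Its changes were -1.24 ± 0.18 in the alveolus and 1.21 ± 0.18 in the peritoneum, an interaction of 2.45 ± 0.25 (adjusted p = 0.000107). Per1 was at 179.7 and 219.7 TPM in WT and 69 and 42.8 in DKO alveolar libraries, and at 91.3 and 77 TPM in WT and 152 and 128 in DKO peritoneal libraries, an interaction of 2.58 ± 0.28.

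Cry2 gave an interaction of 2.26 ± 0.43 and the clock repressor Gm129 one of 1.89 ± 0.37, both from the peritoneum, where they rose by 1.74 ± 0.31 and 2.58 ± 0.26. The receptor Rora gave 1.71 ± 0.30 from the alveolar fall of -1.09 ± 0.21. Arntl, the activator, and Nfil3 fell in both tissues and more in the peritoneum, by -0.63 ± 0.20 and -1.42 ± 0.20 for Arntl and -0.90 ± 0.32 and -1.88 ± 0.32 for Nfil3. Neither interaction passed, at -0.79 ± 0.29 and -0.98 ± 0.46. In chimera alveolar macrophages 1 clock gene rose and 1 fell, and Rora did not pass with that reference. Gm129 did not pass with a pseudocount of 0.1.

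**Figure D4:**
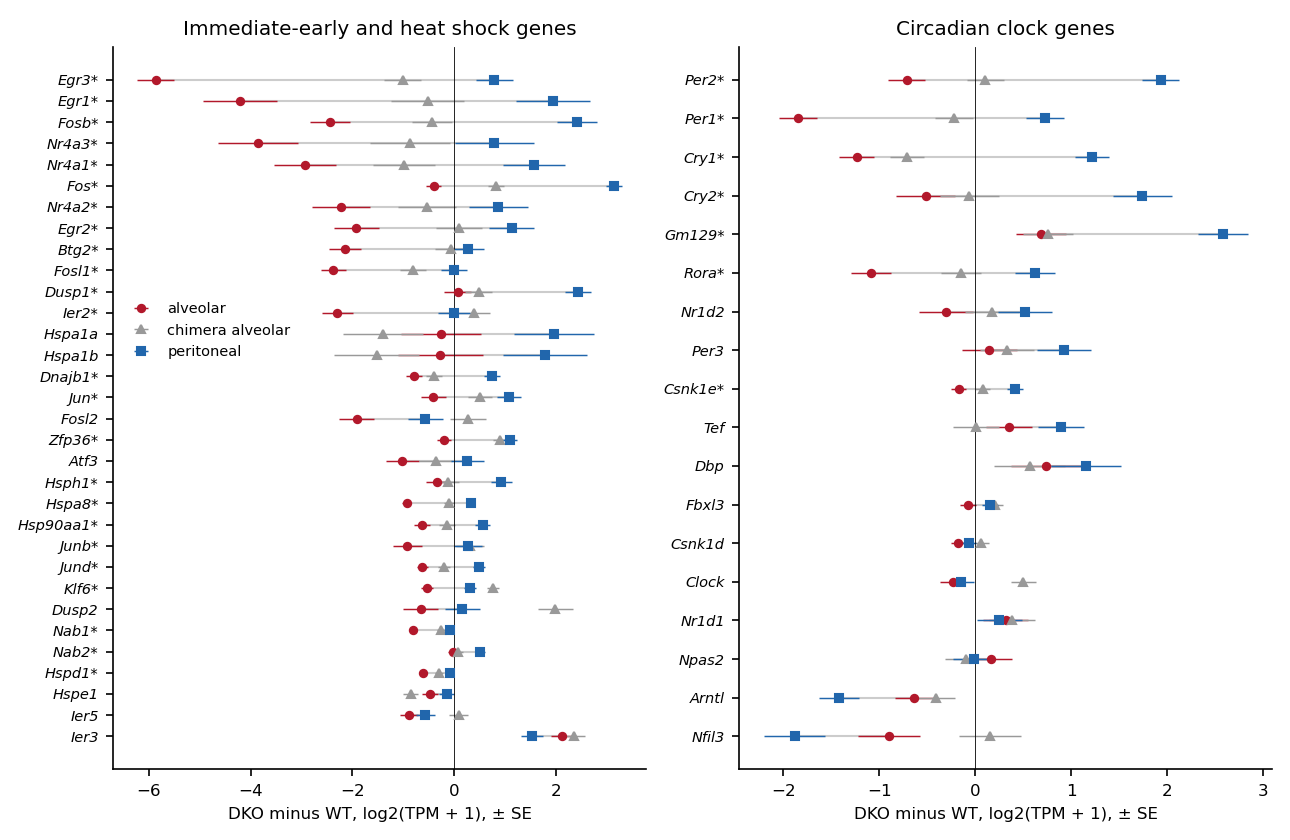
Change from WT to DKO, on log2(TPM + 1) with standard errors of the fit, for 32 immediate-early and heat shock genes (left) and 18 clock genes (right) in alveolar (red), chimera alveolar (grey) and peritoneal (blue) macrophages. Asterisks mark interactions with adjusted p under 0.05; in the upper rows blue lies to the right of red, and grey mostly lies between them.

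The E-box CACGTG, a palindrome that reads the same on both strands, was looked for in the 250 bases before the start site in RefSeq's promoter table (GRCm38.p6). It occurred in 6.02% of all 32851 windows, counted by window. Among tested features, 9014 had a window and 9.97% of them held the motif in any of their windows. These shares differ in unit and cannot be set against each other. The shares below are counted by feature. The share was 15.7% (26 of 166) for positive and 7.6% (20 of 263) for negative interactions called in the peritoneum alone. For opposite calls it was 13.2% (16 of 121) for positive and 9.09% (11 of 121) for negative interactions. For calls in the same direction it was 5.61% (6 of 107) for positive and 14.4% (13 of 90) for negative ones. It was 9.22% (106 of 1150) for positive and 9.18% (46 of 501) for negative ones called in the alveolus alone. Of the 158 genes named by rule or in the text, 122 had a window. Among them 15 held the motif, counted without the windows of a chromosome that was left out of this step alone. Of these 15, Bhlhe41, Cry1, Per1, Prok2, Insig1, Dusp1, Lgmn and Igf2r rose in the peritoneum, Slpi fell there, and Abca1, Cmklr1, Ctsd, Ctsl, Egr2 and Espl1 had no called peritoneal change. Shown, since the text turns on them, are a targeted gene (Bhlhe41), clock genes of opposite change (Cry1 and Per1), Prok2 and Igf2r. The windows are on the gene's strand with CACGTG in capitals, and among those shown only Igf2r held the motif in duplicate. All windows shown belong to genes that rose in the peritoneum. A match describes these letters and is not evidence of binding.

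Windows, in order: Bhlhe41 at chr6:145865421-145865670, minus strand; Cry1 at chr10:85185055-85185304, minus strand; Per1 at chr11:69098699-69098948, plus strand; Prok2 at chr6:99726393-99726642, minus strand; Igf2r at chr17:12769707-12769956, minus strand.
Bhlhe41: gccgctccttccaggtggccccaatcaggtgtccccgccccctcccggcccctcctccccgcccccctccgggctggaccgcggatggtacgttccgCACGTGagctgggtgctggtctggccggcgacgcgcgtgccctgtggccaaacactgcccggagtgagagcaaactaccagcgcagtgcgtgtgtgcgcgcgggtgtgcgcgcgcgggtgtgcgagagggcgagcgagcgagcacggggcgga
Cry1: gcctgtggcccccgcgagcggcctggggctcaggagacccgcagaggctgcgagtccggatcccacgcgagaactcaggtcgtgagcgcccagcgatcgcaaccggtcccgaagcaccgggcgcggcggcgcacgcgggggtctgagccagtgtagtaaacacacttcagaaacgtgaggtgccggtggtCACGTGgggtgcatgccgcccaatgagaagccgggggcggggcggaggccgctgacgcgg
Per1: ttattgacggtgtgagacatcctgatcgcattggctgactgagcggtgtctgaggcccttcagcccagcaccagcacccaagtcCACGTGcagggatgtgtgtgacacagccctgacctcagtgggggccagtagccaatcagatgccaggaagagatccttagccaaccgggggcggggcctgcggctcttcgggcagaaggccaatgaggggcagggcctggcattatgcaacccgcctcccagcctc
Prok2: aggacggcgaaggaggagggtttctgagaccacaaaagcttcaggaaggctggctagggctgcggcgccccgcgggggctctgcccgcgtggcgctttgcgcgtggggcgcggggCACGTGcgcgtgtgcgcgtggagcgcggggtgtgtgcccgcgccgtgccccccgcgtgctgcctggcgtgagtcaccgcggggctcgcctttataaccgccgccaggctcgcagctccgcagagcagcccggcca
Igf2r: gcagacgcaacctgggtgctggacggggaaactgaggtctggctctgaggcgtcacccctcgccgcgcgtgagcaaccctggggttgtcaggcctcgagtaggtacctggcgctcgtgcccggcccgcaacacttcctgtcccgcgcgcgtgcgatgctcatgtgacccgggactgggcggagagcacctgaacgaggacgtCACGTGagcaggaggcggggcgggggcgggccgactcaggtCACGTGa

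The motif lay at different distances from the start. Its first base lay 153 bases before the start in Bhlhe41, 60 in Cry1, 166 in Per1 and 135 in Prok2. In Igf2r the matches began 48 and 7 bases before the start. Per1 and Cry1 thus held the motif and fell in the alveolus, while Bhlhe41 held it and rose in both tissues.

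Identity genes of the cavity macrophage were mostly more negative in the peritoneum than in the alveolus. Of 30 tested, 1 interaction passed above 0 and 19 below (1 and 16 after rescaling, 1 and 18 with the chimera reference). Of the 30, 12 fell and 5 rose in the peritoneum, while in the alveolus 13 rose and 2 fell. Slpi, a secreted protease inhibitor, was at 978 and 960.4 TPM in WT and 1159 and 1818 in DKO alveolar libraries, and at 11747 and 13566 TPM in WT and 2535 and 2048 in DKO peritoneal libraries. Peritoneal DKO libraries fell far below WT toward the alveolar range, with changes of 0.58 ± 0.19 in the alveolus and -2.47 ± 0.19 in the peritoneum, an interaction of -3.05 ± 0.27 (adjusted p = 3.63e-05). Serpinb2, a plasminogen activator inhibitor, had no read in any alveolar library and stood at 507 and 468 TPM in WT and 99.7 and 89.9 in DKO peritoneal libraries, a peritoneal change of -2.35 ± 0.11. Alox15, a lipoxygenase, was at 8435 and 8277 TPM in WT and 5701 and 5452 in DKO peritoneal libraries, with an interaction of -0.66 ± 0.16 that passed in 5 of 8 fits with a library left out. Gata6, the lineage factor, was at 141 and 165 TPM in WT and 91.9 and 81.3 in DKO peritoneal libraries, a change of -0.81 ± 0.14. Its interaction of -0.67 ± 0.20 had adjusted p = 0.035, turned to 0.016 with a pseudocount of 0.1 and passed in 3 of 8 fits with a library left out.

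Other cavity genes contributed through the alveolus. Cd93, a phagocyte receptor, rose in both tissues and more in the alveolus, at 18.4 and 11.1 TPM in WT and 211 and 203 in DKO alveolar libraries and 131 and 137 TPM in WT and 248 and 238 in DKO peritoneal libraries, an interaction of -2.91 ± 0.28. The complement gene C4b gave -3.13 ± 0.27 and the arginase gene Arg1 -3.94 ± 0.41, with uneven peritoneal WT levels of 854 and 1841 TPM. Itgam, which encodes the sorting marker CD11b, was at 2.13 and 1.9 TPM in WT and 9.33 and 23.8 in DKO alveolar libraries although the alveolar gate required low CD11b, and at 3515 and 3898 TPM in WT and 3219 and 3397 in DKO peritoneal libraries, an interaction of -2.57 ± 0.44. Klf2, a factor of quiescent cells, was the 1 gene of this list with a positive interaction. It was at 78.4 and 72.2 TPM in WT and 16.9 and 23.9 in DKO alveolar libraries, and at 1729 and 1651 TPM in WT and 2118 and 1888 in DKO peritoneal libraries, with an interaction of 2.10 ± 0.30 from the alveolar fall, which did not pass with the chimera reference.

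Alveolar identity genes split both ways. Of 32 tested, 16 interactions passed above 0 and 11 below (15 and 11 after rescaling, 10 and 9 with the chimera reference). Those above 0 were mainly genes that fell in the alveolus and were close to absent in the peritoneum, such as the carbonic anhydrase Car4, at 863 and 750.4 TPM in WT and 330.3 and 448 in DKO alveolar libraries and 0 in every peritoneal library. Krt19 and Cdh1, which also mark epithelium and mesothelium, gave 1.52 ± 0.14 and 2.39 ± 0.13 in the same way. Neither Car4 with the chimera reference nor Krt19 with a pseudocount of 0.1 passed. Of 8 tested epithelium markers Scgb1a1 and Sftpb rose and Cdh1 and Ager fell in the alveolus. The 12 stroma and mesothelium markers summed to 1743 to 1899 TPM in WT and 564 to 616 in DKO alveolar libraries, mostly Krt19 itself. The part of other cells in these values was not tested. Pparg, the alveolar lineage receptor, was at 299 and 309.7 TPM in WT and 209.7 and 153 in DKO alveolar libraries, and at 2.66 and 1.79 TPM in WT and 10.6 and 9.53 in DKO peritoneal libraries. It fell in the alveolus and rose in the peritoneum at a far lower level, with changes of -0.76 ± 0.15 in the alveolus and 1.79 ± 0.15 in the peritoneum, an interaction of 2.55 ± 0.21 (adjusted p = 3.02e-05). Pparg lies 32 tested features from Bhlhe40. Marco, a scavenger receptor, rose in the alveolus past its peritoneal level, at 391 and 368 TPM in WT and 3615 and 4218 in DKO alveolar libraries and 1066 and 960.2 TPM in WT and 1224 and 1424 in DKO peritoneal libraries, an interaction of -2.98 ± 0.31.

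Genes of fatty acid handling held several of the clearest reversals. Lpl, the lipase that frees fatty acids from lipoproteins, was at 2379 and 2441 TPM in WT and 3631 and 3561 in DKO alveolar libraries, and at 477 and 603 TPM in WT and 41.9 and 54.6 in DKO peritoneal libraries. It rose modestly in the alveolus and fell steeply in the peritoneum, with changes of 0.58 ± 0.13 in the alveolus and -3.46 ± 0.13 in the peritoneum, an interaction of -4.04 ± 0.18 (adjusted p = 6.21e-07). Fabp4, a fatty acid carrier, was at 210.3 and 174 TPM in WT and 1430 and 1356 in DKO alveolar libraries, and at 1459 and 1307 TPM in WT and 531 and 541 in DKO peritoneal libraries. WT levels were higher in the peritoneum and DKO levels higher in the alveolus, with changes of 2.86 ± 0.15 in the alveolus and -1.36 ± 0.15 in the peritoneum, an interaction of -4.22 ± 0.22 (adjusted p = 1.4e-06). Fabp5, a second carrier, was at 151 and 131 TPM in WT and 308 and 371 in DKO alveolar libraries, and at 153 and 128 TPM in WT and 50.2 and 40.5 in DKO peritoneal libraries. The WT ranges of the tissues overlapped and the DKO ranges did not. Its interaction was -2.87 ± 0.21. Dgat2, which makes triglyceride, went the other way, at 157 and 163 TPM in WT and 42.8 and 27.4 in DKO alveolar libraries and 2.45 and 1.93 TPM in WT and 5.36 and 6.45 in DKO peritoneal libraries, an interaction of 3.30 ± 0.25. Over the 29 genes of uptake, storage and oxidation, 7 interactions passed above 0 and 5 below (6 and 5 after rescaling, 6 and 5 with the chimera reference), with a median of 0.03.

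**Figure D5:**
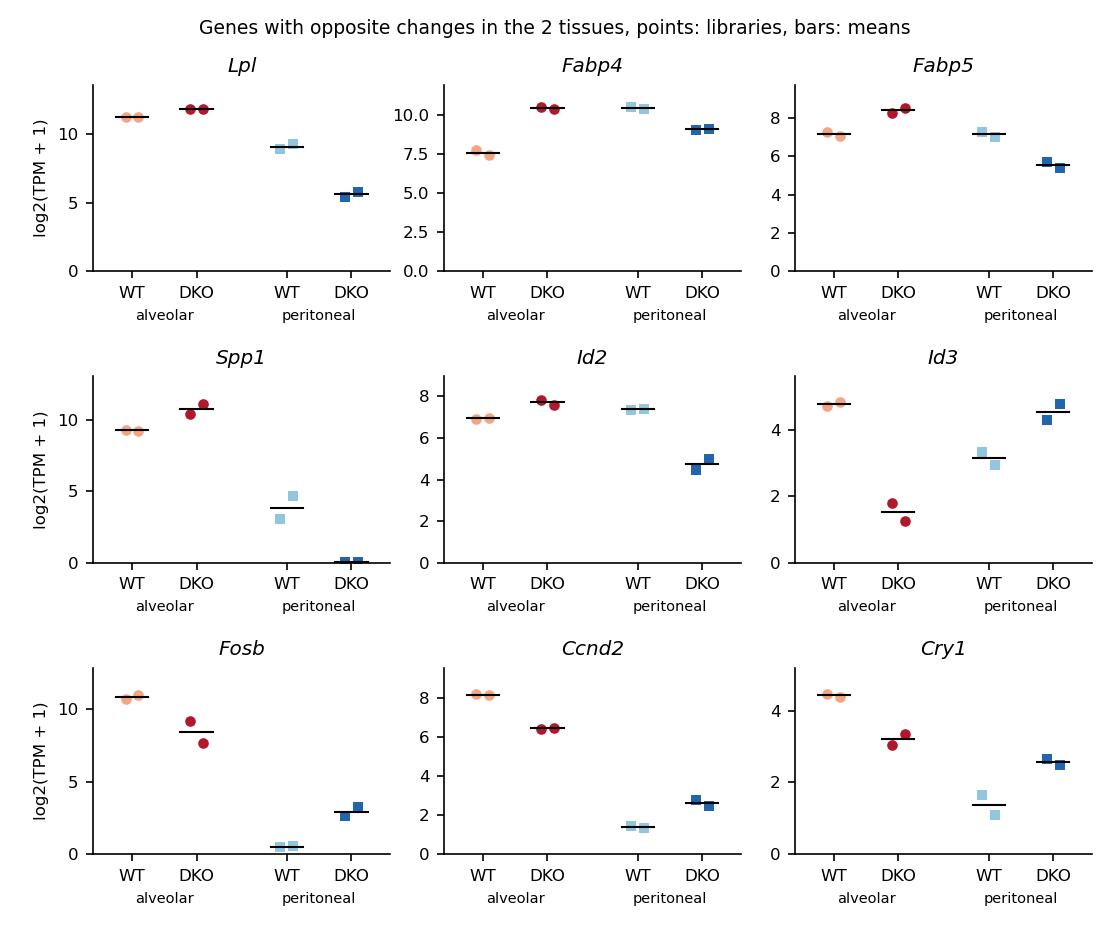
Level of 9 genes with called changes in opposite directions, as log2(TPM + 1) with 1 point per library and bars at the mean of 2 libraries, alveolar groups at the left and peritoneal groups at the right of each panel. Lpl, Fabp4, Fabp5, Spp1 and Id2 go up from WT to DKO in the alveolus and down in the peritoneum; Id3, Fosb, Ccnd2 and Cry1 do the reverse.

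Sterol and desaturase genes depended on the alveolar setting. The stearoyl desaturase gene Scd1 was at 37.1 and 26.2 TPM in WT and 248 and 198 in DKO alveolar libraries, and at 1.03 and 2.06 TPM in WT and 0.441 and 0.355 in DKO peritoneal libraries, an interaction of -3.62 ± 0.31. With the chimera effect as reference it was 0.18 and did not pass, and the chimera change was -1.02 ± 0.22 against 2.79 ± 0.22 at steady state. Scd2 gave -2.56 ± 0.26. Insig1, a brake on sterol synthesis, gave 1.41 ± 0.28 from a peritoneal rise of 0.98 ± 0.20. Over the 27 genes, 3 interactions passed above 0 and 5 below (2 and 5 after rescaling, 0 and 17 with the chimera reference). Insig1 did not pass with the chimera reference. Of 20 LXR targets and apolipoproteins, 2 interactions passed above 0 and 8 below (1 and 9 after rescaling, 6 and 4 with the chimera reference). Apoc1, a small apolipoprotein, rose in the alveolus and fell in the peritoneum, at 38.7 and 44.5 TPM in WT and 207 and 217 in DKO alveolar libraries and 152 and 187 TPM in WT and 46.2 and 116 in DKO peritoneal libraries, an interaction of -3.52 ± 0.48. Apoc2 rose in both, with an interaction of -2.12 ± 0.27 that did not pass with the chimera reference. The cholesterol exporter Abca1 gave -1.17 ± 0.20, or 0.52 with the chimera reference.

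Complement and lysosomal interactions lay mostly below 0. Of 17 complement genes, 1 interaction passed above 0 and 8 below (1 and 8 after rescaling, 0 and 9 with the chimera reference). In the alveolus 9 rose and 1 fell, and in the peritoneum 5 rose and 2 fell. C5ar1, the C5a receptor, was the 1 positive gene, at 568 and 639 TPM in WT and 391 and 366 in DKO alveolar libraries and 187 and 195 TPM in WT and 243 and 264 in DKO peritoneal libraries, an interaction of 1.07 ± 0.14 that did not pass with the chimera reference. Of 36 lysosomal genes, 2 interactions passed above 0 and 18 below (1 and 20 after rescaling, 1 and 10 with the chimera reference). In the alveolus 27 rose and 2 fell, and in the peritoneum 15 rose and 1 fell. Psap, the precursor of saposins, was at 6923 and 6771 TPM in WT and 25032 and 26812 in DKO alveolar libraries, and at 4303 and 4239 TPM in WT and 5329 and 5756 in DKO peritoneal libraries. Groups did not overlap in either tissue, and the changes were 1.92 ± 0.09 in the alveolus and 0.37 ± 0.09 in the peritoneum, an interaction of -1.54 ± 0.12 (adjusted p = 2.28e-05). The protease genes Ctsl, Lgmn, Ctsd and Ctsb gave -1.79 ± 0.17, -1.36 ± 0.12, -1.40 ± 0.14 and -0.83 ± 0.15, and Ctsb did not pass with the chimera reference. Grn, progranulin, rose in both tissues, with a 95% interval of the interaction from -0.11 to 0.38.

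Receptors and bridges for dying cells and modified lipid were mixed. Of 30 tested, 9 interactions passed above 0 and 13 below (8 and 12 after rescaling, 4 and 11 with the chimera reference). The scavenger receptor Msr1 was at 7.07 and 7.94 TPM in WT and 75.2 and 101 in DKO alveolar libraries, and at 359 and 339 TPM in WT and 323 and 299.8 in DKO peritoneal libraries, an interaction of -3.54 ± 0.18. Cd300a, a receptor for exposed phospholipid, gave -2.05 ± 0.18. Cd209a, a lectin, fell in the peritoneum from 14.5 and 14.1 to 2.63 and 2.25 TPM and was under 1 TPM in the alveolus, an interaction of -2.26 ± 0.21. Axl, a receptor tyrosine kinase for dying cells, was at 1394 and 1398 TPM in WT and 1245 and 1144 in DKO alveolar libraries, and at 24.6 and 20.8 TPM in WT and 45.9 and 80.5 in DKO peritoneal libraries, an interaction of 1.61 ± 0.29.

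Adhesion and matrix genes lay to the negative side. Of 36 tested, 4 interactions passed above 0 and 19 below (3 and 20 after rescaling, 1 and 19 with the chimera reference), with a median of -0.62. Vcam1, an adhesion molecule, was at 0.215 and 0.082 TPM in WT and 35.3 and 37.3 in DKO alveolar libraries and at most 0.191 TPM in the peritoneum, an interaction of -4.91 ± 0.22. Its chimera change was smaller, at 1.24 ± 0.16. The metalloprotease genes Mmp12 and Mmp14 gave -4.53 ± 0.41 and -4.57 ± 0.69, and Mmp14 was uneven in DKO alveolar libraries, at 13.1 and 55.2 TPM. Mmp14 did not pass with the chimera reference. Itgb3, an integrin chain, fell in the peritoneum from 20.8 and 18.7 to 4.85 and 4.28 TPM, an interaction of -1.82 ± 0.18. Spp1, the secreted matrix protein osteopontin, was at 642 and 614 TPM in WT and 1405 and 2256 in DKO alveolar libraries, and at 7.27 and 24.3 TPM in WT and 0.056 and 0.0576 in DKO peritoneal libraries, an interaction of -5.28 ± 0.57. Its peritoneal transcript was almost gone in the DKO.

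Of 36 transcription factors of macrophages, 16 interactions passed above 0 and 4 below (15 and 4 after rescaling, 3 and 3 with the chimera reference). Id3 and Id2, inhibitors of helix-loop-helix factors, had interactions of opposite sign. Id3 was at 25.2 and 27.6 TPM in WT and 2.49 and 1.38 in DKO alveolar libraries, and at 9.17 and 6.64 TPM in WT and 18.7 and 26.6 in DKO peritoneal libraries, with changes of -3.25 ± 0.25 in the alveolus and 1.40 ± 0.25 in the peritoneum, an interaction of 4.65 ± 0.35 (adjusted p = 1.66e-05). Id2 was at 121 and 121 TPM in WT and 229 and 194 in DKO alveolar libraries, and at 162 and 169 TPM in WT and 20.6 and 31.2 in DKO peritoneal libraries, with changes of 0.79 ± 0.17 in the alveolus and -2.65 ± 0.17 in the peritoneum, an interaction of -3.45 ± 0.24 (adjusted p = 9.07e-06). Groups did not overlap for either gene in either tissue. Ets2 and the inhibitory Smad7 gave 2.45 ± 0.46 and 1.89 ± 0.21 from alveolar falls, and neither passed with the chimera reference. Among 26 markers of Kupffer, red pulp and microglial cells, 5 interactions passed above 0 and 13 below (4 and 13 after rescaling, 3 and 8 with the chimera reference), and the lectin Fcna gave -3.06 ± 0.25 at 2588 and 2102 TPM in WT and 8668 and 9361 in DKO peritoneal libraries.

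Many cell-cycle genes fell in both tissues. Of 35 replication genes 28 fell in the alveolus and 28 in the peritoneum. After rescaling 15 fell and 1 rose in the alveolus and 24 fell in the peritoneum, beside 17.9% and 7.87% of all features lower. Of 32 mitotic genes 31 and 22 fell, or 29 and 18 after rescaling, where 1 rose in the peritoneum. For replication 1 interaction passed above 0 and 3 below (1 and 4 after rescaling, 0 and 17 with the chimera reference), and for mitosis 1 interaction passed above 0 and 1 below (1 and 1 after rescaling, 0 and 6 with the chimera reference). Top2a, the topoisomerase of dividing cells, was at 41.4 and 30.6 TPM in WT and 16.5 and 12.8 in DKO alveolar libraries, and at 26.9 and 19.8 TPM in WT and 10.6 and 9.02 in DKO peritoneal libraries. Its changes were -1.24 ± 0.24 and -1.16 ± 0.24, and the 95% interval of the interaction ran from -0.67 to 0.83. Rrm2, a subunit of ribonucleotide reductase, gave an interval from -0.89 to 0.48 and Mcm2, a helicase subunit that lies 43 tested features from Bhlhe40, from -0.94 to 0.06. An interval that spans 0 does not show that the tissues act alike.

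The exceptions were small. Mcm5 (interaction -0.68 ± 0.21), Cdt1 (-0.58 ± 0.13), Rfc2 (-0.41 ± 0.11) and Bub1b (-0.92 ± 0.26) were more negative in the peritoneum, and Pola1 (0.83 ± 0.20) and Espl1 (1.27 ± 0.14) more negative in the alveolus. With a library left out, Mcm5 and Bub1b each passed in 2 of 8 fits and Rfc2 in 5. In chimera alveolar macrophages 1 replication gene and 0 mitotic genes fell. With that reference Top2a was at -1.21, Pola1 turned to -0.23, and Rfc2 and Espl1 did not pass. Of the G1 cyclins, Ccnd2 was at 287 and 281 TPM in WT and 84.2 and 86.3 in DKO alveolar libraries, and at 1.76 and 1.51 TPM in WT and 5.87 and 4.55 in DKO peritoneal libraries, with changes of -1.73 ± 0.11 in the alveolus and 1.23 ± 0.11 in the peritoneum, an interaction of 2.96 ± 0.15 (adjusted p = 1.28e-06). Ccnd1, the main cyclin D of the peritoneum, was at 1.61 and 1.8 TPM in WT and 2.33 and 2.86 in DKO alveolar libraries, and at 396 and 416 TPM in WT and 241 and 212 in DKO peritoneal libraries, an interaction of -1.25 ± 0.16. Cdkn2a, a cell-cycle inhibitor, and Ccnd3 gave -1.81 ± 0.28 and 0.47 ± 0.09, and both turned with the chimera reference.

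Interferon-response genes were more often called higher than lower. Of 34 tested 18 rose and 4 fell in the alveolus, against 25 and 0 in the peritoneum, and 10 interactions passed above 0 and 4 below (11 and 4 after rescaling, 15 and 1 with the chimera reference). Irf7, the master regulator of type I interferon, was at 4.46 and 5.09 TPM in WT and 13.1 and 15.8 in DKO alveolar libraries, and at 48.1 and 59.8 TPM in WT and 267 and 265 in DKO peritoneal libraries. DKO exceeded WT in both, with changes of 1.41 ± 0.12 in the alveolus and 2.29 ± 0.12 in the peritoneum, an interaction of 0.88 ± 0.17 (adjusted p = 0.0049). Oasl1 gave 1.89 ± 0.35 from the peritoneum. Ifi35 and Ddx58, an RNA sensor, fell in the alveolus and rose in the peritoneum, with interactions of 1.11 ± 0.10 and 0.83 ± 0.12. The guanylate-binding protein gene Gbp3 rose in the alveolus, by 2.01 ± 0.14, without a called change in the peritoneum, an interaction of -2.11 ± 0.20. Of 21 MHC genes, 2 interactions passed above 0 and 2 below (1 and 2 after rescaling, 5 and 0 with the chimera reference). MHC class II was part of the peritoneal gate. The nonclassical class I gene H2-T23 gave -1.30 ± 0.12 and did not pass with the chimera reference.

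Of 29 chemokines and receptors, 10 interactions passed above 0 and 8 below (10 and 8 after rescaling, 1 and 4 with the chimera reference). Cxcr4, the receptor for a homing chemokine, was at 300.0 and 311 TPM in WT and 189.8 and 206 in DKO alveolar libraries, and at 3.78 and 2.62 TPM in WT and 31.7 and 16.8 in DKO peritoneal libraries. The alveolar change of -0.62 ± 0.24 did not pass, the peritoneal one was 2.54 ± 0.24 and the interaction 3.16 ± 0.34. Ccl22 gave 2.01 ± 0.20, but -0.48 with the chimera reference. Of 36 cytokine and growth factor genes, 12 interactions passed above 0 and 10 below (10 and 11 after rescaling, 4 and 11 with the chimera reference). Igf1, a growth factor, was at 7.28 and 5.83 TPM in WT and 168 and 191 in DKO alveolar libraries, and at 27.6 and 20.8 TPM in WT and 16.4 and 20.5 in DKO peritoneal libraries, an interaction of -4.94 ± 0.23. Csf3r, the G-CSF receptor, gave -2.65 ± 0.27 and Flt1, a VEGF receptor, 1.80 ± 0.16.

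Metabolic and housekeeping lists followed. Of 26 glycolysis and hypoxia genes, 4 interactions passed above 0 and 9 below (3 and 9 after rescaling, 1 and 10 with the chimera reference). Pkm, the pyruvate kinase gene, was at 971 and 946 TPM in WT and 1435 and 1555 in DKO alveolar libraries, and at 1065 and 1236 TPM in WT and 646 and 662 in DKO peritoneal libraries, with changes of 0.64 ± 0.08 in the alveolus and -0.81 ± 0.08 in the peritoneum, an interaction of -1.45 ± 0.12 (adjusted p = 2.28e-05). The glucose transporter gene Slc2a1 likewise rose in the alveolus and fell in the peritoneum, an interaction of -2.13 ± 0.29. Of 36 oxidative phosphorylation genes, 2 interactions passed above 0 and 9 below (1 and 12 after rescaling, 0 and 0 with the chimera reference), and 1 to 6 passed below 0 with 1 library left out, the fewest without alveolar WT replicate 2. Of 31 ribosome biogenesis genes, 11 interactions passed above 0 and 0 below (6 and 0 after rescaling, 1 and 2 with the chimera reference). Of the 31, 30 fell in the alveolus and 14 in the peritoneum, or 20 and 8 after rescaling. Without alveolar WT replicate 2 the positive count was 4. Of 26 chaperone and unfolded protein genes, 3 interactions passed above 0 and 6 below (3 and 6 after rescaling, 3 and 5 with the chimera reference). Herpud1, a degradation factor of the endoplasmic reticulum, gave 1.07 ± 0.14 and the serine synthesis genes Psat1 and Phgdh -1.29 ± 0.14 and 1.0 ± 0.15.

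Genes with called changes in opposite directions numbered 317, of which 159 were positive and 158 negative interactions. The largest by the smaller of the 2 changes, besides those above, were Basp1, Tnfsf14, Fam198b, Fabp7 and Fkbp11. Basp1, a membrane protein of growing cell processes, was at 11.1 and 16 TPM in WT and 120.0 and 159 in DKO alveolar libraries, and at 5.98 and 8.74 TPM in WT and 0.7 and 1.29 in DKO peritoneal libraries, with changes of 3.28 ± 0.28 in the alveolus and -2.06 ± 0.28 in the peritoneum, an interaction of -5.34 ± 0.39 (adjusted p = 1.26e-05). Tnfsf14, a cytokine of the TNF family, was at 0.848 and 1.19 TPM in WT and 14.8 and 19.8 in DKO alveolar libraries, and at 3.37 and 5.55 TPM in WT and 0.844 and 0.715 in DKO peritoneal libraries. DKO lay above WT in the alveolus and below it in the peritoneum, an interaction of -4.76 ± 0.28. Fam198b, Fabp7 and Fkbp11 gave -3.55 ± 0.18, -3.14 ± 0.34 and -3.16 ± 0.55. All 5 rose in the alveolus and fell in the peritoneum. Fkbp11 did not pass with the chimera reference.

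Among features called in the peritoneum alone, the following were picked after their values were seen, among the larger peritoneal changes. Tns1, an adhesion adaptor, was at 295 and 304 TPM in WT and 277 and 222 in DKO alveolar libraries, and at 26.8 and 17.2 TPM in WT and 194 and 204 in DKO peritoneal libraries, an interaction of 3.42 ± 0.24. Peritoneal DKO levels approached those of the alveolus. Folr2, a folate receptor, was under 1 TPM in every alveolar library and at 93.4 and 45.6 TPM in WT and 410.4 and 491 in DKO peritoneal libraries, an interaction of 2.69 ± 0.39. Srpx gave 3.05 ± 0.35. Among those that fell, Stard13, a GTPase-activating protein, was at 18.2 and 22.1 TPM in WT and 0.921 and 0.999 in DKO peritoneal libraries, an interaction of -3.39 ± 0.20. Prtn3, a neutrophil-type serine protease, was at 168 and 275 TPM in WT and 22.2 and 26.9 in DKO peritoneal libraries, an interaction of -3.17 ± 0.32, while the granule genes Mpo and Elane were under 1 TPM in every library. Cav1, the caveolar coat protein, was at 66.5 and 49.1 TPM in WT and 41.6 and 73.2 in DKO alveolar libraries with overlapping groups, and at 38.7 and 28.4 TPM in WT and 5.9 and 2.66 in DKO peritoneal libraries, an interaction of -2.72 ± 0.45. Pi16 gave -2.30 ± 0.27. Folr2 and Pi16 did not pass with a pseudocount of 0.1. Called in both tissues, and also chosen after its values were seen, Rcn3, a calcium-binding protein of the endoplasmic reticulum, rose in both tissues with the largest peritoneal change of all features tested. It was at 7.3 and 9.68 TPM in WT and 33.2 and 31.7 in DKO alveolar libraries, and at 11.6 and 9.25 TPM in WT and 311 and 419.9 in DKO peritoneal libraries, with changes of 1.83 ± 0.16 in the alveolus and 5.0 ± 0.16 in the peritoneum, an interaction of 3.17 ± 0.22 (adjusted p = 9.46e-06).

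Some features were called in the same direction in both tissues. They numbered 1335, 313 higher and 1022 lower in the DKO, and for 1108 of them the 95% interval of the interaction lay within -1 and 1. Of all features 39.4% were lower in the alveolus and 16.1% in the peritoneum, so part of this overlap follows from those shares alone. After rescaling 2206 were lower in the alveolus and 968 in the peritoneum, so fewer than 1022 can then be lower in both. Cyp4f18, a cytochrome of leukotriene breakdown, was at 174 and 176 TPM in WT and 43.7 and 34.4 in DKO alveolar libraries, and at 5.6 and 6.97 TPM in WT and 0.382 and 1.35 in DKO peritoneal libraries. The changes were -2.15 ± 0.21 and -2.01 ± 0.21, and the interaction interval ran from -0.53 to 0.80. Oasl2, an interferon-response gene, rose by 1.79 ± 0.20 and 1.92 ± 0.20, and Slfn5 by 1.38 ± 0.20 and 1.38 ± 0.20. Unc5b, a netrin receptor, rose by 2.20 ± 0.14 and 1.96 ± 0.14, and Nbl1, a secreted BMP antagonist, by 1.90 ± 0.15 and 1.94 ± 0.15. With the chimera reference the interaction of Unc5b was 0.97. Nup210, a nuclear pore protein, fell by 1.46 ± 0.13 and 1.79 ± 0.13, and lies 34 tested features from Bhlhe40. Across all features, the changes in the 2 tissues had a Pearson r of 0.18 and a Spearman coefficient of 0.191. Genes are not independent replicates, and this is a description over 12303 points.

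The interaction can also be read as a change in the distance between the tissues. The absolute difference between peritoneal and alveolar levels was smaller in the DKO than in WT for 57.2% of the called features, against 54.9% of all features. It was smaller for 63.2% of the positive and 47.7% of the negative interactions. The C1q genes came closer and Fabp5 and Lpl moved apart, so that no single direction described the group. The median absolute difference of called features was 0.953 in WT and 0.832 in the DKO.

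Chimera alveolar macrophages show how far the alveolar side of the interaction held in a different setting. Of 2812 called interactions with an alveolar call, 1156 (41.1%) were called in the same direction in chimeras, 74 in the other direction and 1582 not at all. Over all 6337 features with an alveolar call the same-direction share was 32.8%. By direction, 435 of 690 alveolar-only genes that rose with a negative interaction were called the same way in chimeras, and 405 of 1551 that fell with a positive one. These counts are not rescaled. The median change of all features was -0.22 in steady-state and 0.008 in chimera alveolar macrophages. Falls and rises are thus not counted alike, and the part of this shift was not tested. With the chimera effect in the contrast, 2096 interactions passed, 623 positive and 1473 negative. Both contrasts share the peritoneal libraries. C1qb, Igf2r, Apoe, Lpl, Fabp4 and Id3 kept their sign and passed. Of the 158 named genes, 38 calls ended and 9 signs turned, and those the text describes are marked beside their values. The chimera setting and its own library series cannot be told apart. Chimera DKO replicate 1 carried only 6.59 M reads, and the part of its depth in these counts was not tested.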

How the data were processed

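RNA-seq libraries were made from polyadenylated RNA with NEBNext Ultra II, per the labels' protocols. The submitters' processing notes name TopHat 1.4.1, Bowtie 1.0.0, Bowtie2, HTSeq 0.5.3, DESeq2 1.2.10 and, as builds, GRCm38.p3 besides mm9, with no role stated. The authors deposited TPM per gene and library, used here as expression levels. The deposited mean normalized count per gene, a signal averaged over the 4 libraries of a table, was combined with TPM to recover whole reads (100% within 0.01), from which depth was summed. Log2 fold changes and adjusted p-values deposited by the authors were used once, as the authors' calls.

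limma 3.58.1 (R 4.3.3) was fitted to log2(TPM + 1) with 6 group means over 12 libraries (6 residual degrees of freedom, intensity trend). Tests were two-sided, with Benjamini-Hochberg adjustment over all 12303 features. The genome-wide fit was run on simulated data in which a gene's spread was the same in all groups, so unequal spread was not tested. The median SD between libraries was 0.116 in alveolar DKO and 0.066 in alveolar WT. It was 0.072 in peritoneal DKO and 0.061 in peritoneal WT. The p-values measure the spread between 2 replicates per group, pooled over groups. A gene with hardly any reads in a tissue adds little spread, so its SE may be too small. Members and lists were chosen with earlier results of these data known. Named genes are the 15 highest and lowest interactions with at least 5 TPM whose library differences do not overlap between tissues, up to 4 per list by p, 8 opposite and 6 shared genes, Bhlhe40 and Bhlhe41, and further list members the text uses. Features marked IMP_OVL, a mark not explained in the sources used here, include Adam8, Bhlhe40, Ccnd3, Cry2, Ctsb, Gata6, Pdgfra, Pfkp, Scd2, Slfn5 and Slpi, whose values are uncertain if reads are shared with a neighbour. Strandedness is not given in the sources used here. ChIP-seq samples were not used. A few genes of the rule are not reported here. Alternatives changed the pseudocount, filter, scaling, libraries, replicate block, trend, alveolar setting and call rule.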

Additional observations from a re-analysis of the deposited data

Results flagged for a closer look

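The genotype effect differed between the 2 tissues by the interaction test for 3480 features, and the named genes among them are given here by the size of the interaction on log2(TPM + 1). 

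The peritoneal effect exceeded the alveolar one most for Egr3 (6.65), Pmepa1 (6.23), Egr1 (6.15), Epcam (5.90), Fosb (4.85), Spag11b (4.76), Id3 (4.65), Nr4a3 (4.65), Nr4a1 (4.49), Uck2 (4.39), Vash1 (4.24) and Prok2 (4.17). Smaller positive values were found for Areg (4.16), Plac8 (4.12), Scarna9 (4.0), Fos (3.54), Bhlhe41 (3.53), Tns1 (3.42), Dgat2 (3.30), Rcn3 (3.17), Cxcr4 (3.16), Egr2 (3.06), Srpx (3.05) and Ccnd2 (2.96). Below these came Folr2 (2.69), Per2 (2.65), Per1 (2.58), Pparg (2.55), Ets2 (2.45), Cry1 (2.45), Cdh1 (2.39), Dusp1 (2.37), Cry2 (2.26), Klf2 (2.10), Ccl22 (2.01) and Gm129 (1.89). Further positive interactions were those of Smad7 (1.89), Oasl1 (1.89), Flt1 (1.80), Rora (1.71), Ager (1.62), Axl (1.61), Krt19 (1.52), Jun (1.49), Insig1 (1.41), Cxcr2 (1.34), Espl1 (1.27) and Hspa8 (1.26). A lower range held H2-DMb2 (1.14), Ifi35 (1.11), C5ar1 (1.07), Herpud1 (1.07), Car4 (1.06), Phgdh (1.0), Pfkp (0.98), Irf7 (0.88), Pola1 (0.83), Ddx58 (0.83), Ddx21 (0.81) and Cycs (0.71). The smallest positive values belonged to Uqcrfs1 (0.62), H2-DMa (0.60), Nip7 (0.54), Ncl (0.51), Ccnd3 (0.47) and Pes1 (0.45).

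The peritoneal effect lay farthest below the alveolar one for C1qb (-9.46), C1qc (-7.86), C1qa (-7.49), Mfge8 (-7.41), Pianp (-6.79), Igf2r (-5.81), Gas7 (-5.69), Cmklr1 (-5.59), C3ar1 (-5.50), Pmp22 (-5.50), Syngr1 (-5.45) and Adam8 (-5.41). Smaller negative values were found for Basp1 (-5.34), Apoe (-5.30), Htra4 (-5.29), Spp1 (-5.28), Igf1 (-4.94), Vcam1 (-4.91), Tnfsf14 (-4.76), Mmp14 (-4.57), Mmp12 (-4.53), Fabp4 (-4.22), Lpl (-4.04) and Pdgfra (-4.04). These were followed by Arg1 (-3.94), Scd1 (-3.62), Fam198b (-3.55), Msr1 (-3.54), Apoc1 (-3.52), Id2 (-3.45), Stard13 (-3.39), Prtn3 (-3.17), Fkbp11 (-3.16), Fabp7 (-3.14), C4b (-3.13) and Fcna (-3.06). Further negative interactions were those of Slpi (-3.05), S100a8 (-3.02), Marco (-2.98), Cd93 (-2.91), Fabp5 (-2.87), Cav1 (-2.72), Csf3r (-2.65), Itgam (-2.57), Scd2 (-2.56), Serpinb2 (-2.35), Pi16 (-2.30) and Cd209a (-2.26). A middle range held Slc2a1 (-2.13), Apoc2 (-2.12), Gbp3 (-2.11), Cd300a (-2.05), Itgb3 (-1.82), Cdkn2a (-1.81), Ctsl (-1.79), Psap (-1.54), Pkm (-1.45), Ctsd (-1.40), Lgmn (-1.36) and H2-T23 (-1.30). Closer to 0 lay Psat1 (-1.29), Ccnd1 (-1.25), Pfkl (-1.21), Abca1 (-1.17), Pecam1 (-0.94), Bub1b (-0.92), Ctsb (-0.83), Sdf2l1 (-0.77), Sdhb (-0.76), Mcm5 (-0.68), Gata6 (-0.67) and Alox15 (-0.66). Also negative were Cdt1 (-0.58), Tapbp (-0.47), Rfc2 (-0.41) and Ndufa8 (-0.40).

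Of these calls 12 did not pass in every fit with 1 library left out. Tapbp and Ager passed in 1 of 8 such fits, Mcm5 and Bub1b in 2, Gata6 and Pecam1 in 3, Ndufa8 and Cycs in 4, Rfc2, H2-DMa and Alox15 in 5 and Nip7 in 7, the last failing without alveolar WT replicate 2. Groups of 2 libraries are too small for a test of single libraries, and no explanation was weighed for these differences.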

How the results depend on the processing

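The count of called interactions was 3480 as reported and 3171 with a pseudocount of 0.1, 3108 without a filter, 3251 with a minimum of 5 TPM, 3370 after rescaling, 3420 from the 8 libraries alone and 3291 without an intensity trend. With a call rule that also asks for a size of at least 1 it was 1249, 634 positive and 615 negative, fewer by construction. Rescaling gave 2513 higher and 2206 lower features in the alveolus and 1464 and 968 in the peritoneum. The chimera effect gave 2096 interactions, 623 of them positive, and 3354 alveolar calls, 1668 lower, and the cause was not tested. With 1 library left out the ranges were 2120 to 4405 interactions, 1169 to 3007 positive and 915 to 1398 negative, 4474 to 6393 alveolar calls (1147 to 1457 higher, 3289 to 4987 lower) and 1209 to 3283 peritoneal calls (448 to 973 higher, 761 to 2310 lower), from fits with fewer samples in which the lone library is assumed to vary like the other groups.

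With the replicate number as a block common to all groups 3311 interactions passed, and 3043 with a replicate block within each population. Deviations of same-numbered libraries had correlations of -0.063 to 0.126, the highest between chimera WT and chimera DKO. Low correlations over all features cannot exclude a pairing by animal or day, so whether the numbers pair the samples was not settled.

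Of the 158 named genes, rescaling ended 3 calls and added 1, and the chimera effect ended 38 and turned 9: Abca1 to 0.52, Scd1 to 0.18, Pola1 to -0.23, Cdkn2a to 0.66, Ccnd3 to -0.61, Ccl22 to -0.48, Ncl to -0.061, Unc5b to 0.97 and Top2a to -1.21. A pseudocount of 0.1 turned Gata6 to 0.016 and ended the calls of Tapbp, Krt19, Pi16, Folr2, Gm129 and Alox15. Leaving out 1 library ended between 2 and 10 calls and turned no called interaction. Genes under 1 TPM in a tissue are limited most by depth.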
